A study of Mus musculus with 2 samples.

Results

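The 10 genes described here were followed across both arrays of the series. They are the endothelial junction genes Cdh5, Esam and Pecam1, the endothelial receptor genes Tek and Kdr, and the growth factor genes Angpt2, Vegfb, Vegfc, Pdgfa and Pdgfb. They were chosen by symbol, with the log2 differences between these same arrays already known, so their values are given as a description and without a test. Through the platform annotation, which gives each of these probe sets 1 symbol, the 10 genes, of 18193 named in all, have 16 of the 45037 probe sets.

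The cells were CMT-93-PM1, cultured from lung tumours, and their parent CMT-93, a mouse rectal carcinoma line. Per the labels' protocols, the hosts were female C57BL/6 mice that received CMT-93 by the tail vein at 6 weeks of age, and lung tumours were taken 8 weeks later for primary culture. Total RNA of 1 culture of each was put on 1 array, 6 µg per array, so no difference below has a replicate, an error between cultures or a p-value. Both cultures had the same medium per the labels, and the sources used here do not say whether the lung-recovered culture was a clone or was cleared of host cells. The number of arrays limits the precision of every value, and handling of a single array (culture, labelling, hybridization) cannot be told apart from a difference of the lines themselves.

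Blood and lymph vessels are lined by endothelial cells, which hold together through VE-cadherin (Cdh5), ESAM and PECAM-1 and respond to secreted factors through receptor tyrosine kinases. VEGF family ligands act on the VEGF receptors, of which Kdr encodes the main one in blood vessels; angiopoietins act on the receptor encoded by Tek; and PDGF ligands act on PDGF receptors, which are found mainly on mural cells and fibroblasts. Carcinoma cells are a known source of the ligands, whereas the junction proteins and receptors are used as markers of endothelium. RNA was taken from each culture as a whole, so fewer cells of a type and less RNA per cell cannot be told apart.

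Values are log2 signals as deposited, and differences are lung-recovered minus parental. Each array was given a floor at its 40th percentile, 4.59 log2 for the lung-recovered and 4.69 for the parental array, in place of detection calls. Genes under both floors are called not measured, and for genes under 1 floor the fold was computed against that floor and is a lower limit, written "at least". Where a gene has several probe sets, the one with the highest mean signal represents it. Signals of different probe sets depend on their probes. The brightest gene of a list is therefore only the one whose probe set had the highest signal, which ranks no expression, and summed signals are set only between arrays over the same probe sets.

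Of the 10 genes, 9 were measured and Pecam1 was not. By representative probe set Cdh5, Vegfc and Pdgfb passed 2-fold upward in the lung-recovered line and Tek passed it downward, while Esam, Kdr, Angpt2, Vegfb and Pdgfa lay within 2-fold. Of all 13332 measured genes, 4.42% passed 2-fold upward and 2.55% downward, 6.97% in either direction. At 1.5-fold, 4 members were higher and 3 lower, where the shares of all measured genes were 11.5% and 6.95%, 18.4% in either direction. The members were listed with this contrast known, so nothing is read from their share. The median difference of the measured members was -0.05 log2, against 0 for all measured genes. In the parental line 8 of the 10 members were above the floor, where 71.0% of all 18193 genes were so. In the lung-recovered line 8 were above it, where 71.6% of all genes were so. Nothing is read from these counts. Cdh5 was above the floor in the lung-recovered line only and Tek in the parental line only.

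**Figure D1:**
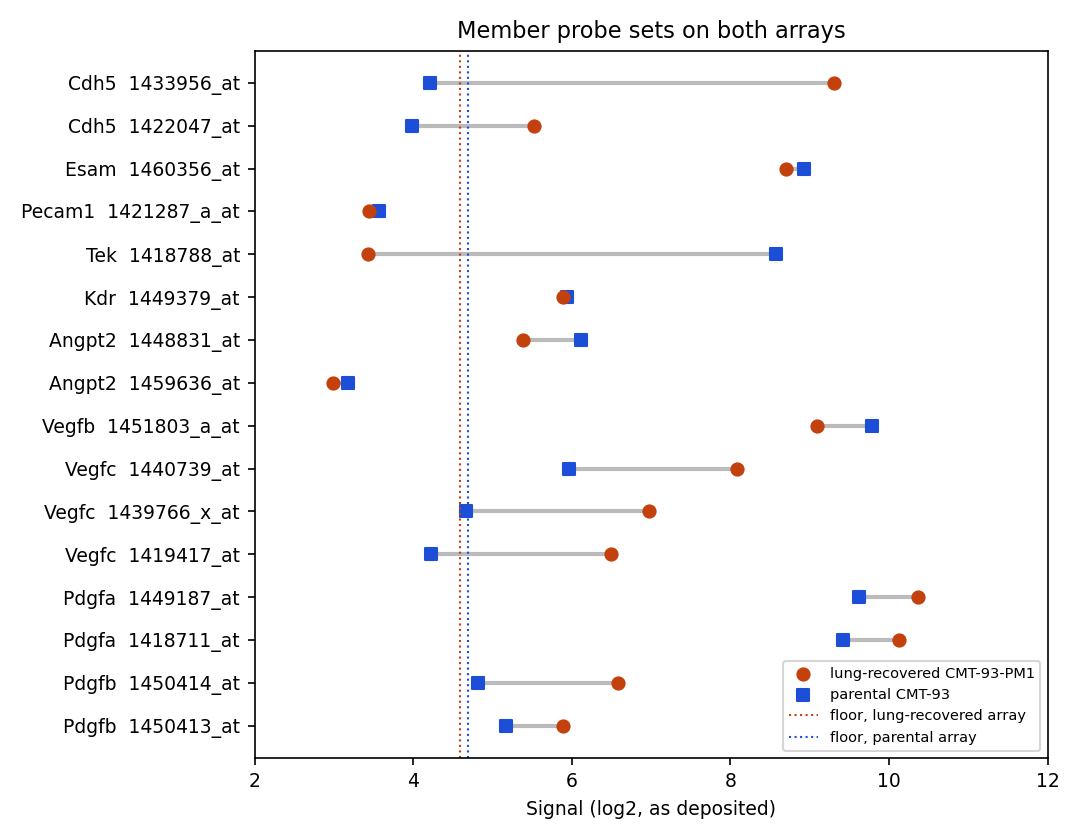
Signal (log2, as deposited) of the 16 probe sets of the 10 genes, with lung-recovered CMT-93-PM1 as circles and parental CMT-93 as squares, 1 array each. Dotted lines mark the floors at 4.59 and 4.69. The lines of Cdh5 1433956_at and Tek are the longest and cross the floor in opposite directions.

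**Figure D2:**
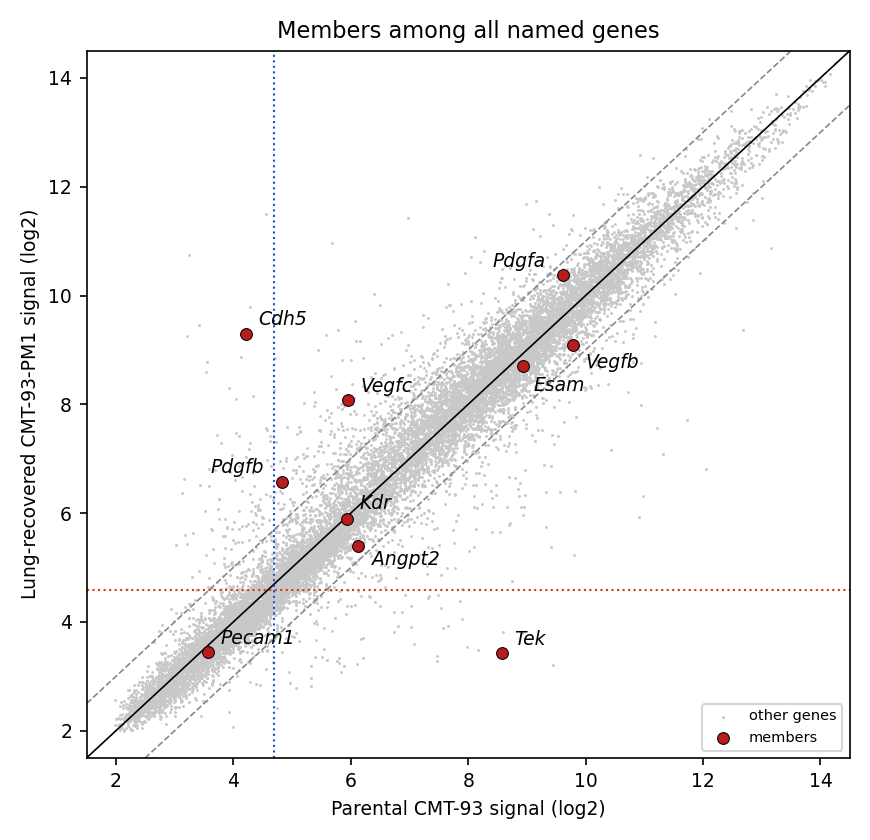
Signal of each named gene by its representative probe set, on the lung-recovered array (y axis, log2) against the parental array (x axis, log2), with the 10 genes as large points. The solid line is equality, dashed lines are 2-fold and dotted lines the floors. Cdh5 lies far above and Tek far below the diagonal, and Kdr and Esam lie next to it.

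The promoter windows of 3 of these genes are printed for their base composition, since Tek, Kdr and Vegfc show 3 different outcomes on these arrays (lower, little apart, and higher). Of the 10 genes, 5 matched a RefSeq table of windows in assembly GRCm38.p6, from 250 bases before to 50 bases after a transcript start. Each window is written 5′ to 3′ on the gene's strand, with each CG dinucleotide in capitals. Tek is at chr4:94739039-94739338 on the plus strand, Kdr at chr5:75978406-75978705 on the minus strand and Vegfc at chr8:54077282-54077581 on the plus strand.
Tek: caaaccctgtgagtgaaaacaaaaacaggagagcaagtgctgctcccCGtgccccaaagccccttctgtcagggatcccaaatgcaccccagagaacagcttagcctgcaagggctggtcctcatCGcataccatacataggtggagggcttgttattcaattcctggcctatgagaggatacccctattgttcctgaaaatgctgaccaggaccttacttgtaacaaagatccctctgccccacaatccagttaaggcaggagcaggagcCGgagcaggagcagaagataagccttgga
Kdr: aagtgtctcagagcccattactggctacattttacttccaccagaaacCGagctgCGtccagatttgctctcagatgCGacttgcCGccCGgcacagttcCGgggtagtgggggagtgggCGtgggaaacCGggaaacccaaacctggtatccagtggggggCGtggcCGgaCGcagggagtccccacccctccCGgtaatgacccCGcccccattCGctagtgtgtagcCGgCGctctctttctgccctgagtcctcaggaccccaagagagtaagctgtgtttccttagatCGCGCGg
Vegfc: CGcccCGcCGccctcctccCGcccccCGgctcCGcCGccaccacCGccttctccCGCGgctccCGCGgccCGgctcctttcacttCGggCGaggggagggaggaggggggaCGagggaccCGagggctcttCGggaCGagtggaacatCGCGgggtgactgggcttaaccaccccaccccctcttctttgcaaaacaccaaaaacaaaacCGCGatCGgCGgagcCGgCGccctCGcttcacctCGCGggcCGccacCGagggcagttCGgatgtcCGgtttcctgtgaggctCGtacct

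The Tek window had 3 CG dinucleotides and 52.0% G and C, the Kdr window 19 and 60.7%, and the Vegfc window 35 and 70.3%. The median over 32851 windows was 7 CG and 52.7%, and 31.4% of windows had as few CG as Tek or fewer, while 6.95% had as many as Vegfc or more. The Vegfb window had 31 CG, and the Pdgfa windows, at 2 starts, had 24 and 37. The ligand windows were thus all richer in CG than those of both receptor genes, in 4 windows of 3 ligand genes. The 3 printed windows were picked by outcome. Over the 5 genes the CG counts were not in the order of the differences, since Vegfb, with more CG than Kdr, was 1.61-fold lower. A relation of CG content to the differences was not tested. On either strand, CAGGAA, which holds the core of ETS factor sites, occurred 2 times in the Tek window, 1 time in that of Vegfc and not in that of Kdr, and 30.6% of all windows hold it. GGGCGG, the GC box, occurred 2 times in each of the Kdr and Vegfc windows and not in that of Tek, and 35.7% of all windows hold it. Matches of the 2 motifs shared 0 bases in these windows, and a match is a run of letters and not a site.

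Among the junction genes, Cdh5 was above the floor in the lung-recovered line only. Cdh5 encodes VE-cadherin, the cadherin of endothelial adherens junctions. Its probe set 1433956_at read 9.30 log2 in the lung-recovered line, against 4.21 in the parental line, a difference of at least 4.61 log2 or at least 24.4-fold. The second probe set, 1422047_at, read 5.52 in the lung-recovered line, against 3.98 in the parental line, at least 1.78-fold higher. Both probe sets were below the floor on the parental array and above it on the lung-recovered array, but their sizes differed widely, and their median was 2.72 log2. Of all measured genes, 6 including Cdh5 were as far upward or further.

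Esam and Pecam1 did not follow Cdh5. Esam, an immunoglobulin-type adhesion molecule of endothelial cells and platelets, read 8.70 log2 in the lung-recovered line, against 8.93 in the parental line, with a difference of -0.23 by its only probe set. It was therefore well above the floor in the carcinoma line before any passage through lung, and stayed above the floor at the 60th percentile on both arrays. Pecam1, which encodes CD31 of endothelium, leukocytes and platelets, read 3.44 in the lung-recovered line, against 3.57 in the parental line, and was at the floor on both. Its fold is not given, and its single probe set has the suffix _a, which marks probes shared by transcripts of 1 gene.

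VE-cadherin binds catenins in the cell, and these were on the arrays too. Of the 8 catenin and cadherin genes listed, 7 were measured, with 1 at least 2-fold higher and 0 lower and a median of 0.14 log2. Over all measured genes 4.42% were higher and 2.55% lower. Ctnnb1, which encodes beta-catenin and was the brightest of the list, read 13.47 in the lung-recovered line, against 13.09 in the parental line. Ctnnal1, an alpha-catenin-like gene, read 7.75, against 6.51 in the parental line, 2.36-fold higher, and 1.93-fold by its other probe set. Cdh1, the epithelial E-cadherin gene, read 12.52 in the lung-recovered line, against 12.66 in the parental line. E-cadherin signal was thus within 2-fold on the array where Cdh5 signal appeared, and Cdh2, the N-cadherin gene, was near the floor at 4.79, against 5.19 in the parental line. Cdh1 and Cdh2, like Ctnna1, Ctnnd1, Jup and the binding partners of members named below, were chosen after their values were seen.

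Of the receptor genes, Tek showed the reverse of Cdh5. Tek encodes TIE2, the angiopoietin receptor of endothelium. Its only probe set, 1418788_at, read 3.43 log2 in the lung-recovered line, against 8.57 in the parental line, a difference of -3.98 log2 against the floor, or at least 15.8-fold lower. The parental carcinoma line thus had Tek signal above even the 60th percentile of its array, and the lung-recovered line was at the floor. Of all measured genes, 12 including Tek were as far downward or further. With 1 probe set for Tek, no second measurement on these arrays bears on it.

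Kdr, which encodes VEGFR2, read 5.89 log2 in the lung-recovered line, against 5.94 in the parental line. The difference of -0.05 was close to 0, and its sign turned with scaling to equal medians (0.05) and with lowess (0.02). Kdr was above the floor at the 40th percentile on both arrays and below that at the 60th percentile on both, so these arrays do not settle whether either line has Kdr RNA.

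Among the ligands, Angpt2 was the one that acts on the product of Tek. Angiopoietin-2 is an antagonist or weak agonist of TIE2, made mainly by endothelial cells. Its brighter probe set, 1448831_at, read 5.39 log2 in the lung-recovered line, against 6.12 in the parental line, 1.66-fold lower, and its other probe set, 1459636_at, read 2.99, against 3.18 in the parental line, at the floor on both. The Tek ligand gene Angpt1 was at the floor on both arrays (3.53 on each), as was Tie1, the gene of the sister receptor (3.19 in the lung-recovered and 3.08 in the parental line). In the table of gene order, Angpt2 lies inside Mcph1, which read 6.91 in the lung-recovered line, against 7.06 in the parental line.

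The VEGF ligand genes differed in opposite directions. Vegfc encodes VEGF-C, a ligand of lymphatic endothelium, and all 3 of its probe sets were at least 2-fold higher in the lung-recovered line. Probe set 1440739_at read 8.08 log2 in the lung-recovered line, against 5.96 in the parental line, 4.35-fold higher. Probe set 1439766_x_at read 6.97, against 4.66 in the parental line, at least 4.86-fold higher. Probe set 1419417_at read 6.49, against 4.23 in the parental line, at least 3.48-fold higher. The 3 unfloored differences, 2.12, 2.31 and 2.26 log2, lay close together, although the suffix _x of one marks probes that may bind other transcripts. Of all measured genes, 87 including Vegfc, or 0.653%, were as far upward or further.

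Vegfb encodes VEGF-B, a ligand of the receptor encoded by Flt1. It read 9.09 log2 in the lung-recovered line, against 9.78 in the parental line, 1.61-fold lower by its only probe set. For comparison, Vegfa read 10.33 in the lung-recovered line, against 9.89 in the parental line, a difference of 0.44. By representative probe set Vegfa, Vegfb and Vegfc were above the floor in both lines. Their differences were 2.12 for Vegfc, 0.44 for Vegfa and -0.69 for Vegfb, and only that of Vegfc passed 2-fold. Vegfd was at the floor on both arrays (4.46 in the lung-recovered and 4.12 in the parental line).

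The receptor genes Flt1 and Flt4 were close to equal on both arrays, and the co-receptor genes Nrp1 and Nrp2 were higher in the lung-recovered line. Flt1 read 6.73 log2 in the lung-recovered line, against 6.77 in the parental line. Flt4, which encodes the VEGF-C receptor VEGFR3, read 5.46 on both arrays. Flt4 thus read lower than Kdr on both arrays and lay below the 60th percentile. As for Kdr, the arrays do not settle whether either line has Flt4 RNA. The co-receptor gene Nrp2, whose product binds VEGF-C and class 3 semaphorins, read 9.54 in the lung-recovered line, against 8.50 in the parental line, 2.06-fold higher by its brightest probe set. Its other probe sets above the floor were 1.39-fold and 1.33-fold higher, and by their median, after quantile normalization and after lowess it was under 2-fold. Nrp1, the related co-receptor gene, read 10.99, against 10.28 in the parental line, a difference of 0.71.

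Both PDGF genes were higher in the lung-recovered line, Pdgfa within 2-fold. They encode the A and B chains, which pair into dimers that act on PDGF receptors of mesenchymal cells. The 2 Pdgfa probe sets agreed within 0.05 log2: 1449187_at read 10.37 in the lung-recovered line, against 9.62 in the parental line, and 1418711_at read 10.12, against 9.42, 1.68-fold and 1.62-fold higher. Pdgfb was close to the floor and its probe sets differed. Probe set 1450414_at read 6.58 log2 in the lung-recovered line, against 4.82 in the parental line, 3.39-fold higher, and 1450413_at read 5.89, against 5.17 in the parental line, 1.65-fold higher. With the higher floor, at the 60th percentile, the Pdgfb difference was 0.40 log2, so its place past 2-fold depends on signal near the floor. The receptor gene Pdgfra was at the floor in both lines (3.64 in the lung-recovered and 3.96 in the parental line), and Pdgfrb was close to it (4.80, against 4.96 in the parental line).

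**Figure D3:**
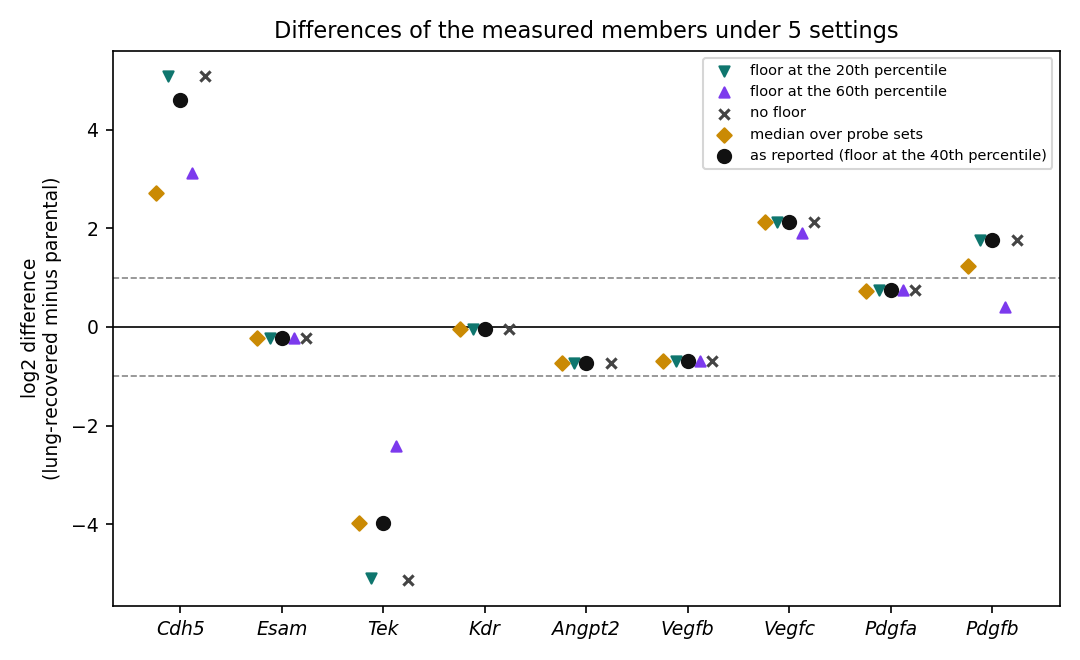
log2 difference (y axis, lung-recovered minus parental) of the 9 measured genes, with the 40th percentile as floor (as reported), with the 20th or 60th or no floor, or as the median over probe sets. Dashed lines mark 2-fold. Cdh5, Vegfc and Tek stay past 2-fold under all 5 settings, and Pdgfb is at 0.40 under the highest floor.

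The other endothelial markers listed beside the members were likewise split into genes above the floor and genes at it. Of 33 on the array, 16 were measured and 17 were at the floor on both arrays, against 4861 of all 18193 genes (26.7%). Vwf, Cd34, Emcn, Plvap, Cldn5, Icam2, Lyve1, Clec14a and Fli1 were among those at the floor on both, named after their values were seen. Of the measured markers, Mmrn2, Erg, Gata2, Sox18 and Lmo2 read lower than Kdr on both arrays and thus lay below the 60th percentile. For these genes, as for Kdr, the arrays do not settle whether either line has the RNA. Of the measured markers 1 was past 2-fold upward and 4 downward, where 4.42% of all measured genes were upward and 2.55% downward. Differences were below 0 for 13 of 16 markers and for 6499 of all 13332 measured genes. The median was -0.22 log2, against 0 for all measured genes. With equal medians it was -0.12, against 0.10 for all measured genes. After quantile normalization it was -0.14, against -0.01, and after lowess -0.12, against 0.01.

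Procr encodes the endothelial protein C receptor and was the marker at least 2-fold higher. It read 10.82 log2 in the lung-recovered line, against 8.27 in the parental line, 5.86-fold higher by a probe set of suffix _s, which may bind several genes. The 4 lower ones were Sox17, Cd93, Selp and Ecscr. Sox17, a transcription factor gene of endoderm and arterial endothelium, read 5.23, against 9.80 in the parental line, 23.8-fold lower, and at least 58.1-fold lower by its other probe set. The first has the suffix _a and the other the suffix _x, whose probes may bind other transcripts. Cd93, a C-type lectin-like receptor gene of endothelium and myeloid cells, read 5.02, against 7.30 in the parental line, 4.86-fold lower, and at least 3.81-fold lower by a second probe set, while 3 others were at the floor on both arrays.

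Selp encodes P-selectin, which endothelium and platelets use to catch leukocytes. Its 3 probe sets read 7.03, 6.74 and 6.67 log2 in the lung-recovered line, against 8.28, 7.98 and 7.78 in the parental line, from 2.16-fold to 2.38-fold lower. These 3 probe sets agreed in direction and size. Ecscr, an endothelial cell surface gene, read 8.94, against 10.08 in the parental line, 2.20-fold lower by its only probe set. Of the endothelial-type genes past 2-fold, Tek and these 4 were thus lower, while Cdh5 and Procr were higher. Others that the parental line reads, among them Esam, Jam2, Mcam, Nos3, Egfl7 and Ptprb, lay within 2-fold.

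Few of the other angiogenic ligands and receptors passed 2-fold, as few of all measured genes did (4.42% upward and 2.55% downward). Several were too dim to show a difference. Pgf, Angpt4, Fgf1, Apln, Hgf and Robo4, among others, read lower than Kdr on both arrays. As for Kdr, the arrays do not settle whether either line has their RNA. Of 18 ligands on the array 13 were measured, with 1 at least 2-fold higher, 0 lower and a median of -0.02 log2. The higher one, Ccn1, a matricellular gene, read 12.53 in the lung-recovered line, against 11.14 in the parental line, and its 4 probe sets gave 2.62-fold (2 of them), 1.17-fold and 1.14-fold. Of 20 receptors 13 were measured, with Nrp2 higher, Ramp3 lower and a median of 0.08. Ramp3, a co-receptor gene for adrenomedullin, read 4.96, against 5.99 in the parental line, 2.04-fold lower, and under 2-fold or without a value in 5 of 8 alternatives. Met, which encodes the receptor of hepatocyte growth factor and had the probe set of highest signal in the list, read 11.04, against 10.84 in the parental line, and 7.63, against 7.01 in the parental line, by its other probe set.

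Of the 10 angiogenesis inhibitors on the array 8 were measured, with 3 at least 2-fold higher, 2 lower and a median of 0.11 log2. Over all measured genes 4.42% were higher and 2.55% lower. The list was chosen with results of these data known, so nothing is read from its counts. Col18a1, the collagen whose fragment is endostatin, was 5.98-fold higher, with 9.10 in the lung-recovered line, against 6.52 in the parental line, and 17.9-fold higher by its other probe set. Spry1, an inhibitor of receptor tyrosine kinase signalling, read 9.20, against 7.64 in the parental line, 2.95-fold higher. Vash2, listed with its paralog but known as a promoter of vessel growth, read 5.79, against 4.49 in the parental line, at least 2.14-fold higher. Vash2 was below the 60th percentile on both arrays, and with that floor 2 inhibitors were at least 2-fold higher.

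The inhibitor genes on the lower side were Timp3 and Adamts1. Timp3, whose product also blocks VEGF binding to VEGFR2, read 4.76, against 8.75 in the parental line, 15.9-fold lower. Adamts1, a protease gene, read 9.17, against 10.50 in the parental line, 2.51-fold lower. Thbs1, the thrombospondin gene and the brightest of the list, read 11.78, against 11.74 in the parental line. The inhibitors thus held both large upward and large downward differences.

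**Figure D4:**
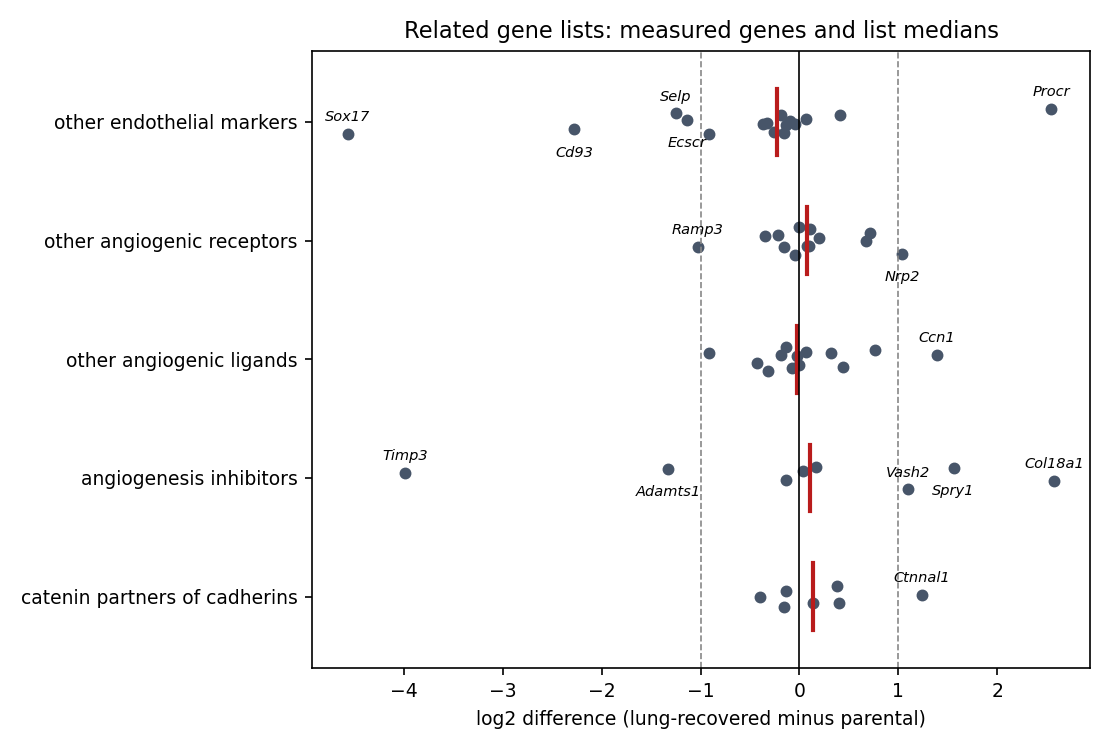
log2 difference (x axis, lung-recovered minus parental) of every measured gene of 5 related lists, 1 point a gene, with vertical bars at list medians and dashed lines at 2-fold. Names mark the genes at least 2-fold apart. The other endothelial markers have 4 genes below -1 and 1 above 1, and the list medians lie between -0.22 and 0.14.

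Markers of cell types that the cultures could hold were checked beside these values. Of 10 epithelial markers 8 were above the floor on both arrays, with Krt19 brightest at 12.98 log2 in the lung-recovered line, against 12.72 in the parental line, and 0 were 2-fold apart. Cdx1 and Vil1, markers of intestinal epithelium, were at the floor on both arrays. Cdx2, a further intestinal marker counted as measured, read 5.08 in the lung-recovered line, against 5.24 in the parental line. It read lower than Kdr on both arrays, so these do not settle whether either line has Cdx2 RNA. The summed linear signal of the 33 other endothelial markers was 4670 in the lung-recovered line, against 4901 in the parental line. These sums include markers at the floor and combine opposite differences, with Procr higher and Sox17, Cd93, Selp and Ecscr lower. Above the floor on each array were 16 of the 33. Among endothelial genes picked here after their values were seen, Pecam1, Vwf, Cd34 and Emcn lay under both floors. Esam, Jam2, Mcam, Nos3, Ecscr and Procr lay above both. Cdh5 lay above the floor in the lung-recovered line only, and Tek in the parental line only.

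Of 12 leukocyte markers 7 were measured, with Cd68 (3.53-fold) and Csf1r (2.17-fold, the brightest) at least 2-fold higher, 0 lower and Ptprc, the gene of the pan-leukocyte marker CD45, at the floor on both. The other Csf1r probe sets were 1.72-fold and 1.01-fold higher, and by the median over probe sets or with the 60th percentile as floor 1 leukocyte marker was past 2-fold. Their summed linear signal was 641 in the lung-recovered line, against 468 in the parental line. Of 7 platelet markers on the array 5 were measured, with Ppbp at least 2.73-fold higher, 0 lower, Pf4 at the floor on both and Itga2b brightest at 7.46 log2, against 7.35 in the parental line. With the 60th percentile as floor 0 platelet markers were past 2-fold. Their summed signal was 396, against 349 in the parental line. Of 13 fibroblast and mural cell markers 8 were measured and 0 were 2-fold apart, with a summed signal of 422, against 497 in the parental line. Des was brightest, at 6.23 log2, against 6.78 in the parental line, and Col1a1 and Col3a1 were at the floor on both arrays. The measured ones other than Des read lower than Kdr on both arrays, as did Lyz2, Cd79a, Fcer1g, Gp9, Gp1bb and Treml1 of the leukocyte and platelet lists. As for Kdr, the arrays do not settle whether either line has the RNA of these genes. What part host cells have in the Cdh5, Vegfc or Pdgfb difference was not tested.

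The 10 genes lie on 7 chromosomes, with Cdh5, Vegfc and Angpt2 all on chromosome 8, and Kdr and Pdgfa on chromosome 5. For each gene the 5 nearest measured genes on each side were taken in the order of assembly GRCm38.p6. The neighbours of Cdh5 had a median difference of -0.24 log2 and 0 of 10 were at least 2-fold higher, while Ndrg4, the fifth gene before it, was 18.9-fold lower (7.08 in the lung-recovered line, against 11.32 in the parental line). The neighbours of Tek had a median of 0.06 and 0 of 10 were at least 2-fold lower, and Jun, a transcription factor gene, was 2.03-fold higher. Neither gene thus had a neighbour past 2-fold in its own direction in this window. Of all measured genes only 4.42% passed it upward and 2.55% downward, so nothing is read from 0 of 10. Within 10 genes on each side, 1 of 20 near Cdh5 was higher and 1 of 20 near Tek was lower past 2-fold, with medians of -0.04 and 0.14.

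Near Vegfc the median was 0.20, and Asb5, which encodes an ankyrin-repeat and SOCS box protein, read 7.06 in the lung-recovered line, against 3.98 in the parental line, at least 5.17-fold higher. The genes around Angpt2 had the lowest median of the 10 windows, -0.40, with Defb3 at least 7.31-fold, 6820431F20Rik 2.27-fold and Cln8 2.10-fold lower. Defb3 belongs to the beta-defensins, which have close paralogs, so its signal may hold that of relatives. Near Pdgfb, Cbx6 was 2.04-fold higher and D730005E14Rik (at least 2.55-fold) and Apobec3 (2.35-fold) were lower. Near Esam, Spa17 was 2.04-fold higher, and near Pecam1 Snord104 (4-fold) and Tex2 (2.38-fold) were lower. The windows of Kdr, Vegfb and Pdgfa held 0 genes past 2-fold, with medians of -0.01, 0.32 and -0.12.

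**Figure D5:**
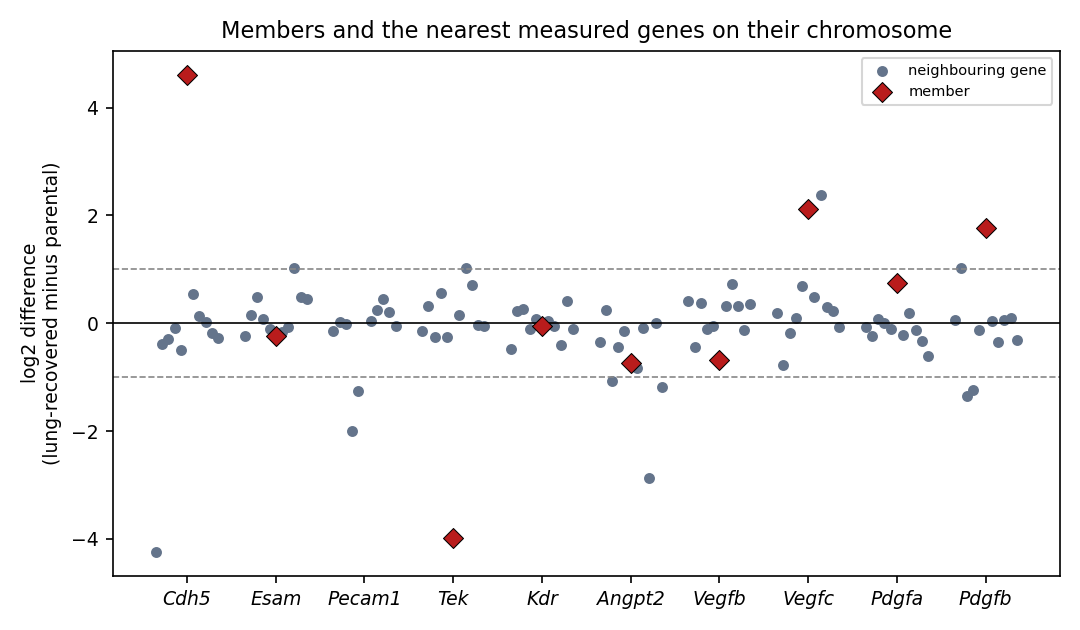
log2 difference (y axis, lung-recovered minus parental) of each gene (diamond) and of the 5 nearest measured genes on each side, in chromosome order from left to right. Pecam1 was not measured and has no diamond. Around Cdh5 and Tek no neighbour passes 2-fold (dashed) in the direction of the gene itself. Of all measured genes 4.42% pass it upward and 2.55% downward.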

How the data were processed

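Total RNA of 1 lung-recovered and 1 parental culture was hybridized to 1 array each, and MAS5 is named with no role per the submitters' processing notes. The deposited values are log2 signals with 2 decimals for 45037 probe sets, and the base was taken from their range. The authors' scaling between arrays is not stated in the labels used here, so values were used as deposited (medians 5.26 log2 for the lung-recovered and 5.36 for the parental array). Of the probe sets, 34945 had 1 symbol, 932 had several and 9160 were unlisted and unnamed; 34741 of those with 1 symbol were matched by Entrez identifier to the gene table of GRCm38.p6 and took its symbol. The floor, representative probe sets and 2-fold rule are given with the results. Among 5782 genes with several probe sets above both floors, the SD of the difference between probe sets of 1 gene had a median of 0.17 log2 and a 90th percentile of 0.49. With 1 array a group no test was made. The members and gene lists were chosen with earlier results of these data known. The genes named are the members, list genes 2-fold apart or brightest, and neighbours 2-fold apart; others were chosen after their values were seen. Nearest genes by distance between signals were planned and are not reported, since signals of different probe sets are not comparable. Calculations used Python 3.11.15, numpy 2.4.6, pandas 2.3.3 and statsmodels 0.14.6, and the counting was tested on simulated data. The alternatives were equal medians, quantile normalization, lowess (span 0.3), floors at the 20th and 60th percentiles or none, the median over probe sets, leaving out the suffixes _s, _x and _a, folds of 1.5 and 4, and 10 neighbours on each side.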

Additional observations from a re-analysis of the deposited data

How the results depend on the processing

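No paired analysis was possible because each group has 1 array, and no replicate could be left out. Over 8 alternatives the difference of Cdh5 ran from 2.72 to 5.09 log2, of Tek from -5.14 to -2.42, of Vegfc from 1.90 to 2.22, of Pdgfb from 0.40 to 1.86, of Pdgfa from 0.68 to 0.85 and of Esam from -0.32 to -0.13. Over the 7 that gave a value, Vegfb ran from -0.78 to -0.59, Angpt2 from -0.73 to -0.63 and Kdr from -0.05 to 0.05. With the floor at the 60th percentile Cdh5 was at 3.12, Tek at -2.42, Vegfc at 1.90 and Pdgfb at 0.40, no longer past 2-fold, while Kdr and Angpt2 were not measured. With the floor at the 20th percentile Cdh5 was at 5.09 and Tek at -5.10, and with none at 5.09 and -5.14. These shifts follow from the floors, since the genes lie at the floor on 1 array. By the median over probe sets Cdh5 was at 2.72 and Pdgfb at 1.24. At 1.5-fold 3 members were lower (6.95% of all measured genes). Among the lists, the ligands had 0 genes at least 2-fold higher by the median over probe sets or without suffixed probe sets, and the receptors 0 higher after quantile normalization, after lowess and by that median. The receptors had 0 lower after equal medians, quantile normalization, lowess, the floor at the 60th percentile and without suffixed probe sets, and their median was 0.44 with that floor. Without suffixed probe sets the other endothelial markers had a median of -0.64. They had 0 higher and 3 lower, because Procr and Sox17 have only suffixed probe sets. Scaling to equal medians moved the median of all genes to 0.10. Kdr and Angpt2, below the highest floor on both arrays, and Pdgfb are limited by dim signal. The platelet markers had 0 genes and the leukocyte markers 1 gene at least 2-fold higher under that floor.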
